A study of Homo sapiens with 40 samples.

Results

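The genes described here are 46 receptors through which leukocytes attach and migrate: 18 integrin alpha subunits, 8 integrin beta subunits, 9 CC chemokine receptors, 6 CXC chemokine receptors and 5 sphingosine-1-phosphate receptors. They were taken by symbol from the 62754 genes that each of the 3 deposited tables of raw read counts lists, and all 46 were found in each table. The study is about QKI, an RNA-binding protein, in T-ALL, an acute leukemia of T-cell precursors, and its 40 RNA-seq libraries form 10 groups of 4. Jurkat cells, a T-ALL line grown with 10% serum, received a non-targeting control siRNA or a QKI siRNA by electroporation, and their RNA is labelled total RNA; the headers of the control columns name them shNTC. Libraries labelled HPB-ALL, a T-ALL line grown with 20% serum, received virus carrying a control shRNA or a QKI shRNA by spinning the cells with it, and a stranded messenger RNA kit is named for them. The other groups are untreated lines: LOUCY, TALL-1, DND-41 and ALL-SIL with 10% serum, and KARPAS-45 and HPB-ALL with 20%. RNA of the untreated lines and of the libraries labelled HPB-ALL is labelled polyadenylated RNA. The design text calls the 4 replicates of each knockdown biological. Nothing in the labels says that the 4 libraries of an untreated line are separate cultures, so p-values over lines measure the spread between these libraries, which may be technical.

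Integrins are paired receptors, 1 alpha and 1 beta subunit each, that bind matrix proteins such as fibronectin and laminin or counter-receptors on other cells, and that switch to a binding state when talin and kindlin attach to the beta tail. Chemokine receptors and sphingosine-1-phosphate receptors are G-protein-coupled: chemokine gradients guide leukocytes into tissues and switch integrins on, while sphingosine-1-phosphate draws lymphocytes out of thymus and lymph nodes into blood. In T-ALL, CXCR4 and CCR7 are known for their part in settlement of leukemic cells in marrow and in the central nervous system.

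Library depth was 44093984 to 134916505 counts on genes. QKI itself read 148, 176, 137 and 133 CPM (read counts scaled to the depth of the library) in the Jurkat controls and 24.9, 17.4, 18.2 and 25.3 with QKI siRNA (log2 fold change -2.79, SE 0.17, adjusted p 0.000129). With the shRNAs, the libraries labelled HPB-ALL read 104, 103, 101 and 107 CPM of QKI in the control arm and 54.5, 54.9, 55.9 and 57.7 in the knockdown arm (log2 fold change -0.90, SE 0.035, adjusted p 1.1e-07). Of the untreated lines, LOUCY had 0 QKI counts in all 4 libraries, which with 3 counts as the limit allows up to 0.0595 CPM in its shallowest library. KARPAS-45 held 6.7 ± 0.776 CPM of QKI (SD, n = 4), and the means of the other lines ran from 87.98 to 162. The 10 T-cell markers chosen for this work summed to 1764 to 2071 CPM in the QKI siRNA libraries of Jurkat, 1798 to 2059 in its controls and at least 2089 in every untreated library. In the libraries labelled HPB-ALL none of the 10 reached 1 CPM, their sum was 1.19 to 1.46 CPM, CD5 and LCK had 0 counts in the control arm, and 12 myeloid markers summed to 3302 to 3886 CPM. The untreated HPB-ALL libraries, with 4052 to 5307 CPM of T-cell markers and 14.5 to 34.1 CPM of myeloid ones, differ from them in both lists. For that reason the group keeps the name of its label, and what cells it holds was not settled.

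Between 18 receptors (TALL-1) and 26 (ALL-SIL and the control shRNA libraries labelled HPB-ALL) had a mean of at least 1 CPM, which is 39.1% to 56.5% of the 46, beside 19.3% to 22.0% of all genes at that level. The receptors at 1 CPM or more in all 10 groups were ITGA4, ITGA6, ITGAE, ITGAL, ITGB1, ITGB2, ITGB4 and CXCR4. ITGA8, ITGA11, ITGB6, ITGB8, CCR3, CCR6 and CXCR1 reached it in none. CCR6, which guides cells to CCL20, had 0 counts in 9 groups and a mean of 0.00383 CPM in KARPAS-45. Counts of CXCR5, the receptor that takes cells to lymphoid follicles, and of ITGB7 could include reads of genes on the opposite strand whose exons share bases with theirs (3925 bases with BCL9L and 1886 with ZNF740), because no source used here gives the strand setting of the counting. ITGB3 shares 2266 exon bases with AC068234.1 on the same strand, which no strand setting would separate. In the libraries labelled HPB-ALL, 5.13% to 5.32% of reads were set aside as ambiguous. Where reads of shared exons were set aside in that way, the counts of these genes would be too low instead.

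**Figure D1:**
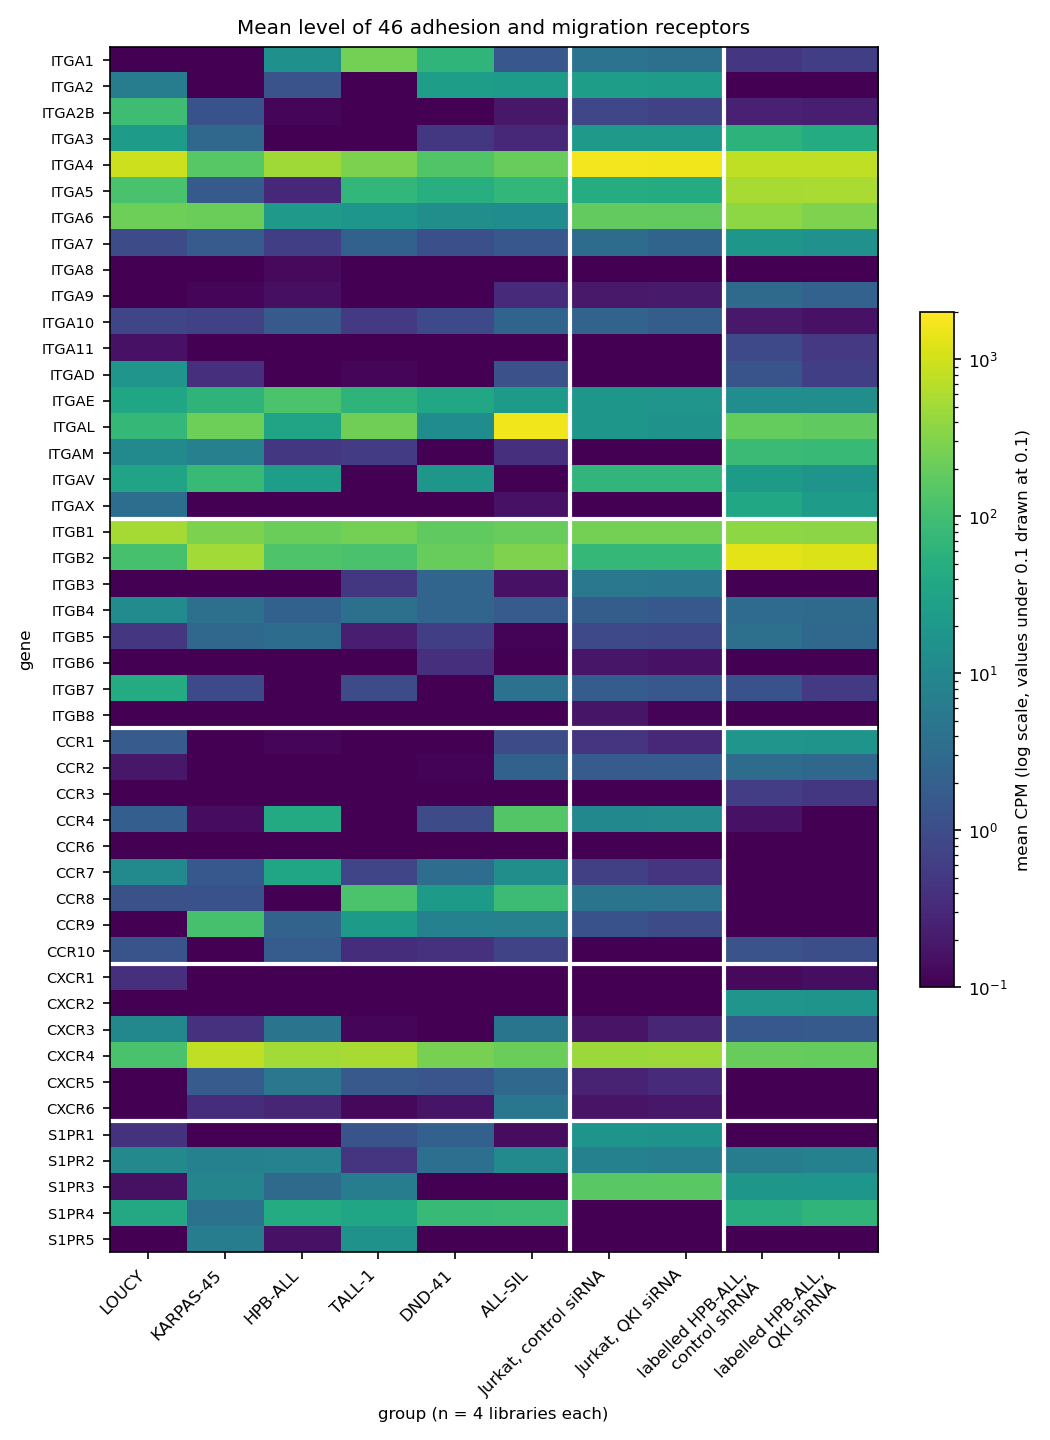
Mean level of each of the 46 receptor genes (rows, grouped by family) in each of the 10 groups (columns, 4 libraries each), as CPM on a log color scale with values under 0.1 drawn at 0.1. ITGA4, ITGB1, ITGB2 and CXCR4 were among the 8 genes at 1 CPM or more in every group, while most chemokine and sphingosine receptors were high in some groups and near 0 in others.

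Levels of different genes were compared per kilobase of exon (RPKM, which is CPM divided by the exon length in kilobases). By that measure CXCR4, the receptor for CXCL12, was the first of the 46 in KARPAS-45 (348 ± 82.8 RPKM, SD, n = 4), TALL-1, HPB-ALL and DND-41. ITGA4, the alpha chain of the VCAM1 and fibronectin receptor VLA-4, led in Jurkat control cells (213 ± 44.9 RPKM) and LOUCY (118 ± 8.37 RPKM). In Jurkat controls CXCR4, at 458 ± 108 CPM over 2224 exon bases, was within the spread of ITGA4 per kilobase. With QKI siRNA the order of these Jurkat means was reversed (ITGA4 203.7 ± 40.9 RPKM, CXCR4 467 ± 84.2 CPM over the same bases). ITGAL, the alpha chain of the ICAM receptor LFA-1, led in ALL-SIL (249.7 ± 16.1 RPKM). ITGB2, the beta chain that LFA-1 shares with the myeloid integrins, led in the control libraries labelled HPB-ALL (195 ± 7.22 RPKM). Of 24 textbook integrin pairs, alpha-4 beta-1, alpha-6 beta-1, alpha-6 beta-4 and LFA-1 had both subunits at 1 CPM or more in all 10 groups. The number of such pairs ran from 7 in TALL-1 to 15 in the control libraries labelled HPB-ALL. The platelet pair ITGA2B and ITGB3 had it in 0 groups: LOUCY carried 93.8 CPM of ITGA2B, and the highest ITGB3 mean was 5.21 CPM, in Jurkat control cells. A transcript of both subunits is not a measurement of the pair on the cell surface.

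In Jurkat, QKI siRNA left no receptor past the threshold. Of the 34 receptors that passed the filter on low counts, 0 were called by the edgeR quasi-likelihood test at an adjusted p under 0.05. That stands beside 0.0047% of all 21296 genes tested (1 gene, QKI). In this fit, which leaves the replicate number out, 0 receptors had an unadjusted p under 0.05, beside 0.873% of all genes. DESeq2 called 0 receptors as well, beside 0.00939% of all genes. The other 12 (ITGA8, ITGA11, ITGAD, ITGAM, ITGAX, CCR3, CCR6, CCR10, CXCR1, CXCR2, S1PR4 and S1PR5) were too low to test. The median log2 fold change of the 34 was -0.09, beside 0.00077 over all genes.

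Jurkat receptors with at least 10 CPM in control cells, 14 genes, had log2 fold changes from -0.27 (ITGAL) to 0.06 (CCR4) with SE of 0.11 to 0.26. ITGA4 read 1698, 1179, 1931 and 1932 CPM in controls and 1580, 1176, 1935 and 1748 with QKI siRNA (log2 fold change -0.07, SE 0.19, adjusted p 1). CXCR4 read 427, 327, 579.6 and 501 CPM and then 402, 392, 564 and 512 (log2 fold change 0.03, SE 0.19, adjusted p 1). Both arms of both genes overlapped, and in each arm replicate 2 was lowest. ITGB1, the common partner of the matrix-binding alpha chains, had 249.7 ± 17.1 CPM in controls and 254 ± 26.1 with QKI siRNA. S1PR3, a receptor better known from endothelium and myeloid cells, was at 156 ± 27.4 and 156 ± 36.4 CPM, and S1PR1, the receptor of lymphocyte egress, at 16.9 ± 2.33 and 15.6 ± 1.33 CPM. These pairs of values differed by less than the spread between replicates, a spread that leaves the pairing by replicate number out of account.

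ITGA7, a laminin-binding alpha chain, was the 1 Jurkat receptor whose arms did not overlap, beside 0.676% of all genes that were lower in every knockdown library. It read 2.88, 2.8, 3.26 and 4.08 CPM in controls and 2.17, 2.13, 2.79 and 2.76 with QKI siRNA (log2 fold change -0.40, SE 0.21, adjusted p 1). ITGAL read 23.9, 18.1, 16.3 and 18.5 CPM in controls and 21.5, 13.6, 14.5 and 14.4 with QKI siRNA, lower in each of the 4 same-numbered pairs although the arms overlap. Same-numbered Jurkat libraries deviate together, so an edgeR fit with the replicate number as a block was run too. The receptors with the smallest p in that fit were ITGAL (log2 fold change -0.28, unadjusted p 0.0039, adjusted p 0.71) and ITGA7 (-0.40, unadjusted p 0.0111, adjusted p 0.741). ITGA10 (-0.35, unadjusted p 0.0375) and ITGB4 (-0.38, unadjusted p 0.0478) came next, both with an adjusted p of 0.741. All other tested receptors had an unadjusted p above 0.05 with the block. The share of all genes with such a p is not given here for that fit. By adjusted p none of the named receptors was near the threshold. With the block 0 receptors were called, beside 0.0423% of all genes. Its SE was smaller for the abundant receptors. ITGA4 had a log2 fold change of -0.06 (SE 0.060) and CXCR4 of 0.04 (SE 0.070), beside SE of 0.19 for both without the block.

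In the libraries labelled HPB-ALL, QKI shRNA went with lower integrin transcripts and higher transcripts of a pair of sphingosine receptors. Of 33 receptors tested, 14 fell and 2 rose at an adjusted p under 0.05 (edgeR). Of all 17974 genes tested, 23.2% were called, 10.4% lower and 12.8% higher. DESeq2 called 15 receptors (23.6% of all genes) and a fit with the replicate block 14 (17.0%). The median log2 fold change of the 33 receptors was -0.13, beside -0.0055 over all genes. By family, 10 of 16 tested alpha subunits, 3 of 5 beta subunits and 1 of 5 CC receptors fell, 0 of 4 CXC receptors were called in either direction, and 2 of 3 sphingosine receptors rose. The same 16 receptors were the ones whose arms did not overlap (14 lower and 2 higher, beside 11.7% and 14.5% of all genes). The filter removed 13 receptors (ITGA2, ITGA8, ITGB3, ITGB6, ITGB8, CCR6, CCR7, CCR8, CCR9, CXCR5, CXCR6, S1PR1 and S1PR5), each under 0.1 CPM in both arms. In bulk libraries, fewer cells of a type and less RNA per cell cannot be told apart. Myeloid markers moved too: 5 of 11 tested fell (LYZ -0.71, AZU1 -0.47, CST3 -0.17, CSF1R -0.23 and S100A9 -0.46 on the log2 scale) and 0 rose, with a summed level of 3727 to 3886 CPM in control and 3302 to 3431 in knockdown libraries, and their part in the receptor changes was not tested.

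**Figure D2:**
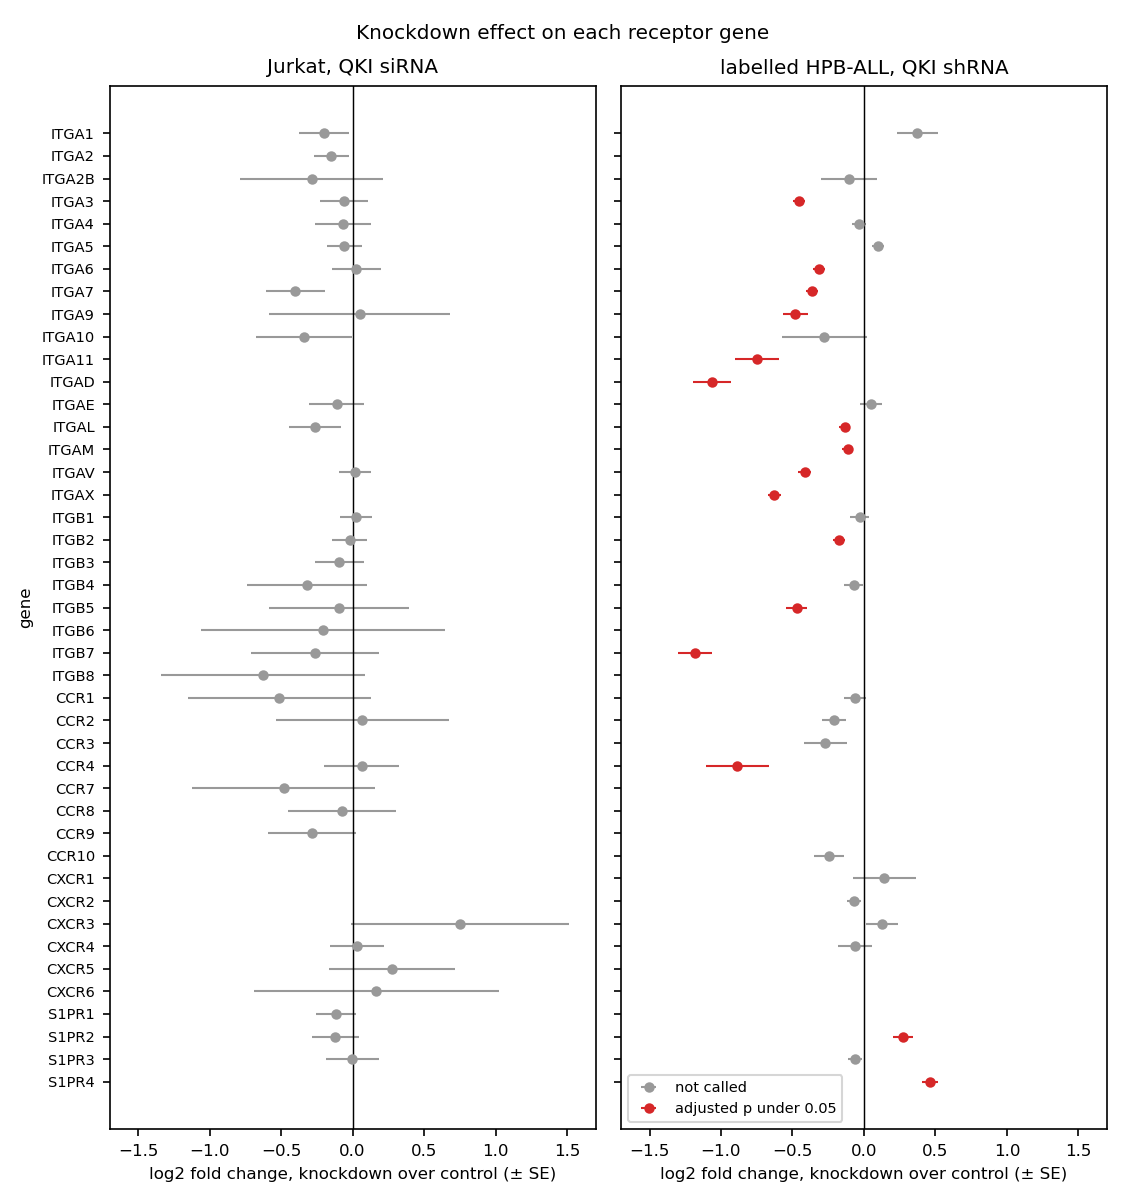
Log2 fold change of each tested receptor gene, knockdown over control, with its SE, in Jurkat (left, 34 genes) and in the libraries labelled HPB-ALL (right, 33 genes); red marks an adjusted p under 0.05 and a missing point a gene removed by the filter. None of the Jurkat points is red, and on the right 14 red points lie below 0 and 2, S1PR2 and S1PR4, above it.

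All 5 genes of the beta-2 family, the leukocyte integrins, were lower with QKI shRNA. ITGB2 (chr21:44885953-44931989, GRCh38, GENCODE 29), their shared beta chain, read 1284, 1365, 1282 and 1371 CPM in controls and 1153, 1212, 1173 and 1168 with QKI shRNA (log2 fold change -0.17, SE 0.043, adjusted p 0.0129). ITGAX (chr16:31355134-31382997), the CD11c chain of dendritic cells and macrophages, read 35.6, 36.7, 36.2 and 37.9 CPM and then 24.7, 24.2, 23.99 and 21.9 (log2 fold change -0.63, SE 0.045, adjusted p 4.7e-06). Its arms lie far apart, and the mean fell by 35.2%. ITGAD (chr16:31393312-31426505), the CD11d chain, read 1.18, 1.52, 1.4 and 1.1 CPM and then 0.71, 0.629, 0.54 and 0.626 (log2 fold change -1.06, SE 0.13, adjusted p 0.000198). Its mean, which is low in both arms, fell by 52.1%. ITGAL read 189.7, 202, 198 and 186 CPM in controls and 183, 172, 179 and 174 with QKI shRNA (log2 fold change -0.13, SE 0.039, adjusted p 0.0272). ITGAM (chr16:31259967-31332892), the CD11b chain of the complement receptor of monocytes and neutrophils, read 83.8, 88.1, 84.05 and 88.9 CPM and then 78.2, 76.8, 81.02 and 82.8 (log2 fold change -0.11, SE 0.038, adjusted p 0.0475). ITGAL and ITGAM fell by 8.8% and 7.5%, and their arms nearly touch. Both lost the call with the replicate block (adjusted p 0.0684 for ITGAL and 0.0832 for ITGAM), without the filter (0.0773 and 0.181) and without control replicate 2 or QKI shRNA replicates 2 or 3. ITGAL also lost it without control replicate 3 or QKI shRNA replicate 4, and ITGAM without control replicate 4 or QKI shRNA replicate 1. ITGAM, ITGAX and ITGAD are neighbours on chromosome 16 within the same stretch, with ITGAL on the same arm of that chromosome.

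ITGB7 (chr12:53191318-53207307), the beta chain of the gut-homing integrin alpha-4 beta-7 and of the E-cadherin receptor that ITGAE forms, had the lowest fold change of the 33. It read 1.17, 1.36, 1.21 and 1.03 CPM in controls and 0.535, 0.466, 0.573 and 0.543 with QKI shRNA (log2 fold change -1.18, SE 0.12, adjusted p 5.4e-05) and the arms are far apart. Its alpha partners were not called: ITGA4 read 719, 825, 772 and 804 CPM and then 760.3, 749, 748 and 792 (log2 fold change -0.03, SE 0.048, adjusted p 0.666), and ITGAE had 12.7 ± 1.24 and 13.1 ± 1.12 CPM. With ITGA4 at 98.7 RPKM and ITGB7 at 0.266 RPKM, the beta chain was the scarcer transcript of the pair in the control arm.

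Of the chains that bind laminin and other matrix proteins, ITGA3, ITGA6, ITGA7, ITGA9 and ITGA11 fell, and ITGA1, ITGA5, ITGA10, ITGB1 and ITGB4 were not called. ITGA6, which makes laminin receptors with ITGB1 and ITGB4, read 385, 377, 349 and 373 CPM in controls and 299, 296, 298 and 301 with QKI shRNA (log2 fold change -0.31, SE 0.039, adjusted p 0.000198). ITGA3, a further laminin chain, read 57.1, 63.3, 60.4 and 62.4 CPM and then 43.3, 42.6, 44.8 and 46.9 (log2 fold change -0.45, SE 0.044, adjusted p 4.4e-05). In both genes all 4 knockdown libraries lay below all 4 controls by a gap wider than the spread of either arm. ITGA7 read 19.3, 18.5, 19.3 and 18.9 CPM and then 15.4, 14.6, 14.1 and 14.96 (log2 fold change -0.36, SE 0.043, adjusted p 0.000151). The lower ITGA9, which binds tenascin and osteopontin, read 2.84, 3.27, 2.9 and 3.4 CPM and then 2.51, 2.1, 2.03 and 2.25 (log2 fold change -0.48, SE 0.089, adjusted p 0.00276), and ITGA11, a collagen chain of fibroblasts, 0.799, 0.803, 0.83 and 1.11 and then 0.543, 0.399, 0.557 and 0.589 CPM (log2 fold change -0.75, SE 0.15, adjusted p 0.00487). None of these arms overlapped. ITGB1 read 326, 398, 342 and 408 CPM in controls and 356, 349, 361 and 376 with QKI shRNA (log2 fold change -0.03, SE 0.067, adjusted p 0.784), and its 4 knockdown values lie inside the range of the controls. ITGA5, the fibronectin chain, was at 541 ± 17.5 and 578 ± 17.8 CPM (log2 fold change 0.10, SE 0.041, adjusted p 0.109), and ITGB4 at 3.17 ± 0.0842 and 3.02 ± 0.161. The collagen chain ITGA1 was at 0.485 ± 0.0578 and 0.632 ± 0.0821 CPM (log2 fold change 0.37, SE 0.14, adjusted p 0.0742) and was called without control replicate 2, and ITGA10, which also binds collagen, was at 0.2 ± 0.0759 and 0.162 ± 0.036 CPM (log2 fold change -0.28, SE 0.30, adjusted p 0.546).

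ITGAV and ITGB5, which pair as a vitronectin receptor, fell together. ITGAV read 23.3, 21.9, 22.03 and 21.5 CPM in controls and 16.3, 17.6, 15.8 and 16.8 with QKI shRNA (log2 fold change -0.41, SE 0.047, adjusted p 0.000109). ITGB5 read 3.83, 4.1, 3.82 and 3.55 CPM and then 2.95, 2.54, 2.71 and 2.87 (log2 fold change -0.47, SE 0.072, adjusted p 0.000853). Neither gene's arms overlapped.

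Among the chemokine receptors only CCR4, a receptor of skin-homing T cells, was called, and its level was near the detection limit: 0.145, 0.152, 0.175 and 0.176 CPM in controls and 0.0919, 0.0961, 0.0748 and 0.083 with QKI shRNA (log2 fold change -0.88, SE 0.22, adjusted p 0.0125). DESeq2 did not call it (adjusted p 0.0651). The abundant ones stayed within their spread: CXCR4 read 198, 257, 181 and 174 CPM in controls and 203, 203, 213 and 157 with QKI shRNA (log2 fold change -0.06, SE 0.12, adjusted p 0.739). CXCR2, the neutrophil receptor for CXCL8, had 17.8 ± 0.897 and 16.9 ± 0.396 CPM, and CCR1, a monocyte receptor for CCL3 and CCL5, 17.5 ± 2.01 and 16.7 ± 1.04. CCR2, the monocyte receptor for CCL2, was at 3.27 ± 0.272 and 2.81 ± 0.247 CPM (adjusted p 0.0951).

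S1PR4, a sphingosine receptor of blood and lymphoid cells, read 49.3, 50.2, 41.9 and 48.7 CPM in controls and 66.7, 62.8, 65.5 and 66.8 with QKI shRNA (log2 fold change 0.46, SE 0.053, adjusted p 0.000132), a rise of 37.7% in which every knockdown library was above every control. S1PR2, which couples to G12/13 proteins and holds migration back, read 6.12, 6.84, 5.71 and 6.87 CPM and then 7.89, 7.22, 7.97 and 7.72 (log2 fold change 0.27, SE 0.068, adjusted p 0.0131). These arms are separate by a smaller gap. S1PR3 was at 18.8 ± 1.07 and 17.97 ± 0.704 CPM (adjusted p 0.393), S1PR1 had 0 counts in the control arm, and S1PR5 had 0 counts in both.

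**Figure D3:**
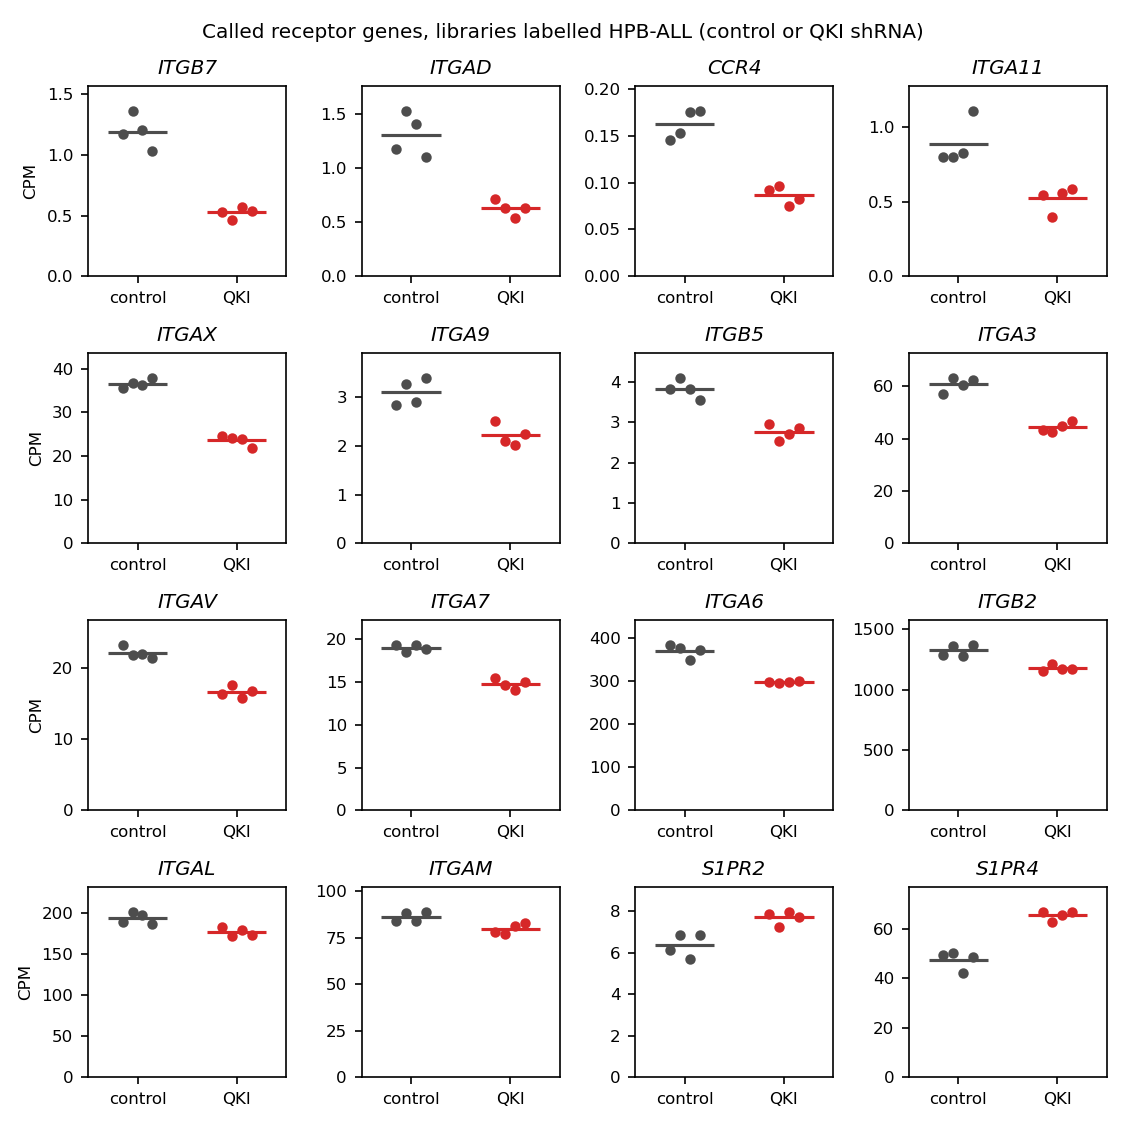
CPM of the 16 receptor genes called in the libraries labelled HPB-ALL, ordered by fold change, with 1 point per library (4 per arm, gray for control and red for QKI shRNA), a line at each mean and a linear axis from 0. In all 16 panels the arms are separate, by the widest relative gap for ITGB7, ITGAD and CCR4 and by the narrowest for ITGAL and ITGAM.

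ITGAM (7.5% lower, call lost in several settings) and ITGB7 were taken as genes that fell and S1PR4 as the clearest rise. Promoters are printed for these 3 of the 16 genes, so that a reader can see which sequence lies at an annotated start of each. They are RefSeq windows on GRCh38.p14 from 250 bases before to 50 bases after the annotated start, 5′ to 3′ on the gene's strand, with capitals marking motif matches on either strand. The letters GAGGAA are a site type of the myeloid factor PU.1. For the GATA factors AGATAA was searched, and the variant TGATAA as well. For the RUNX factors TGTGGT was searched, and the variant TGCGGT as well. ITGAM is at chr16:31259725-31260024, plus strand, ITGB7 at chr12:53207202-53207501, minus strand and S1PR4 at chr19:3178519-3178818, plus strand.
ITGAM: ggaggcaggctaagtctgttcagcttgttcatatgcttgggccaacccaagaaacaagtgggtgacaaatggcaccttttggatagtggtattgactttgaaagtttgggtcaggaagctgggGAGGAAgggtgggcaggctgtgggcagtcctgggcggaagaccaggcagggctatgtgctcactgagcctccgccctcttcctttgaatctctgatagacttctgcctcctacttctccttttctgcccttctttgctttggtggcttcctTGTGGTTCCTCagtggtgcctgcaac
ITGB7: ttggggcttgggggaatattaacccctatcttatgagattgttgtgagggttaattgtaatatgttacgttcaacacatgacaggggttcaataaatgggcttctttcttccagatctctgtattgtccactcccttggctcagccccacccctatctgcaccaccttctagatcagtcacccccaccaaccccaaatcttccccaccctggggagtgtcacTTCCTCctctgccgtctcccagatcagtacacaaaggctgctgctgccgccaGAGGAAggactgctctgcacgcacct
S1PR4: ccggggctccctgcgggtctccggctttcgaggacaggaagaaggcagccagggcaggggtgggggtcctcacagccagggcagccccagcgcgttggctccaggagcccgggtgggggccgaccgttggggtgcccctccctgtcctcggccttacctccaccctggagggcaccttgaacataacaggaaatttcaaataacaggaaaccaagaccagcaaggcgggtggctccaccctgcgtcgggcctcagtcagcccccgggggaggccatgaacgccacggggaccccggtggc
The ITGAM window holds 2 matches to GAGGAA and 1 to the RUNX letters, which overlap near the 3′ end, the ITGB7 window 2 to GAGGAA, and the S1PR4 window none to any of these motifs. RefSeq windows were matched for 34 of the 46 receptors, 48 windows in all, and 33.3% of them hold GAGGAA, beside 27.9% of all 35116 promoter windows (16.3% hold a GATA match and 19.6% a RUNX match). Of the 14 genes that fell, 7 had windows, 11 in all, and 6 windows of 6 genes hold GAGGAA. Of these 7 genes, 3 have a GATA match and 3 a RUNX match. ITGA6 is the 1 of the 7 with no GAGGAA, although it fell (log2 fold change -0.31, edgeR adjusted p 0.000198) and kept its call in every setting. It is not printed. Both printed genes that fell hold GAGGAA, so the printed windows do not show this exception. The 2 windows of S1PR2 and S1PR4 hold none of these motifs. Over all 34 receptors with windows, 16 hold GAGGAA, 15 a RUNX match and 6 a GATA match. No entry was matched for ITGA3, ITGA7, ITGA9, ITGAD, ITGAL, ITGAX and ITGB2. A match of letters is a description and not a measurement of binding.

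Whether the knockdown acted differently on the receptors in the 2 experiments was tested in 1 model over their 16 libraries, for the 24 receptors that passed the filter in both. None was called (edgeR), beside 0.0254% of 15730 genes; 4 had an unadjusted p under 0.05, namely ITGAV, ITGA1, CCR4 and S1PR2, and 6.26% of all genes did. DESeq2 called 0 of them as well, with 1 adjusted p not given, beside 0.642% of all genes. With the replicate number as a block within each experiment, 2 receptors were called, both lower, beside 2.78% of all genes called and 1.34% called lower: the effect on ITGAV was lower in the libraries labelled HPB-ALL than in Jurkat by a log2 difference of -0.43 (SE 0.076, adjusted p 0.0136), and that on ITGA3 by -0.40 (SE 0.089, adjusted p 0.0321). ITGAV read 64.4, 75.6, 64.4 and 63.4 CPM in Jurkat controls and 64.95, 76.97, 66.2 and 62.9 with QKI siRNA, and ITGA3 25.2, 23.1, 15.8 and 20.4 and then 23.5, 22.2, 17.6 and 17.9. In Jurkat these arms overlap, whereas those labelled HPB-ALL do not. S1PR4, ITGAM, ITGAX, ITGAD and ITGA11 could not be compared, because the filter removed them in Jurkat. Cell type, siRNA or shRNA, serum and library preparation differ between the experiments and cannot be told apart.

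Lists of genes that act with the receptors were counted in the same fits, and 0 of their genes were called in Jurkat. In the libraries labelled HPB-ALL the counts stand beside 12.8% of all 17974 genes called higher and 10.4% called lower. Of 24 tested integrin activators and adaptors 4 rose and 7 fell, with a median log2 fold change of -0.0039. TLN2 (-0.30), a talin, and RAP1B (-0.24), the GTPase that brings talin to the membrane, fell, as did the adaptor SKAP2 (-0.24), while RAPGEF1 (0.27), an exchange factor of RAP1, rose. Of 17 integrin ligands 1 rose, ICAM3 (0.27), a ligand of LFA-1, and 2 fell, COL4A1 (-0.54) and LAMA5 (-0.35), chains of basement-membrane collagen and laminin. Of 10 tested chemokines 5 fell and 0 rose (median -0.39): CCL3 (-0.58) and CCL5 (-0.18), ligands of CCR1, CCL2 (-0.44), the ligand of CCR2, CCL20 (-0.92), the ligand of CCR6, and CCL22 (-0.58), a ligand of CCR4. CCL5, named beyond the rule for named genes after its values were seen, was the most abundant of the 5, at 83.35 ± 2.14 CPM in controls (SD, n = 4) and 73.7 ± 7.02 with QKI shRNA.

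Of 22 genes that carry chemokine and sphingosine receptor signals, 4 rose and 1 fell: RGS14 (0.25) and, named after its values were seen, RGS2 (0.34), which speed the shut-off of G proteins, the G-protein subunit GNG2 (0.23) and ELMO1 (0.22), which works with DOCK2 on the GTPase RAC, rose, and the receptor kinase GRK5 (-0.31) fell. Of 8 tested genes that make or break down sphingosine-1-phosphate 3 rose and 0 fell, namely the kinase SPHK2 (0.29), the lyase SGPL1 (0.26) and the phosphatase PLPP3 (0.33), so that genes for synthesis and for breakdown both rose. In the list of S1PR1 regulators and homing genes the transcription factor FOXO1 rose (0.21), and CD44 (-0.13), the hyaluronan receptor, fell. None of 3 tested atypical and other chemokine receptors was called.

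Across the untreated lines the receptors varied more than the typical gene. All 40 that passed the filter were called by the F test over the 6 lines, beside 98.0% of 20348 genes. The median range between the highest and lowest line mean was 4.86 on the log2 scale (with 0.1 CPM added to each), beside 2.06 for all genes tested. ITGB1 had the smallest range, 1.53, and ITGA1 the widest, 11.27. In 24 of the 40, all 4 libraries of 1 line were above the 20 libraries of the other lines, beside 45.1% of all genes: 10 had this in LOUCY, 4 in KARPAS-45, 4 in ALL-SIL, and 2 each in HPB-ALL, TALL-1 and DND-41. Over all genes the share was 9.64% for LOUCY, 16.4% for KARPAS-45, 4.22% for ALL-SIL, 6.64% for HPB-ALL, 4.42% for TALL-1 and 3.78% for DND-41. The filter removed ITGA8, ITGA11, ITGB8, CCR3, CCR6 and CXCR2.

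LOUCY, a line with an immature T-cell phenotype, had all 4 libraries above the 20 libraries of the other lines for 10 receptors, 9 of them integrins. ITGA2B, the platelet chain CD41, read 87.98, 72.9, 88.6 and 126 CPM there and at most 1.32 in any library of the other lines (log2 difference 6.26, SE 0.26, adjusted p 1.6e-16 against KARPAS-45, the next line). ITGB7 read 37.2, 43.1, 43.2 and 51.5 CPM, against at most 5.77 elsewhere (log2 difference 3.37, SE 0.24, adjusted p 4.2e-12 against ALL-SIL). ITGAD read 15.2, 14.7, 20.7 and 18.4 CPM, against at most 1.74 elsewhere. For these 3 genes the next line was at least 10 times lower. ITGA3 read 23.97, 24.4, 25.2 and 20.1 CPM in LOUCY and 2.67, 2.63, 3.42 and 2.68 in KARPAS-45, with 0 counts in HPB-ALL. ITGA5 read 114, 108, 113 and 130.4 CPM in LOUCY; ALL-SIL (70.5) and TALL-1 (70.4) did not differ beyond their spread, and HPB-ALL held 0.307 ± 0.0319. ITGB4, the hemidesmosome chain, read 13.8, 12.97, 11.7 and 9.34 CPM. Of the remaining members of this group ITGAX had 3.59 ± 1.59 CPM and CXCR1 0.398 ± 0.132. ITGAM was highest in LOUCY too, but its libraries read 10.2, 15.4, 16.1 and 4.09 CPM and overlapped those of KARPAS-45 (7.44, 8.01, 7.15 and 6.99, adjusted p 0.0796 for the difference). Without replicate 4 of every line, a setting added after the data were seen, ITGAM was higher in LOUCY than in KARPAS-45 (log2 difference 0.92, SE 0.19, adjusted p 0.00014). Against the mean of the other 5 lines, 31 of 40 receptors were called in LOUCY (65.8% of all genes were), 21 of them higher (37.3% of all genes). The same contrast called 33 receptors in ALL-SIL (59.2% of all genes), 27 in DND-41 (57.7%), 31 in HPB-ALL (63.0%), 31 in KARPAS-45 (73.2%) and 25 in TALL-1 (57.3%). These counts have a limit, because the contrast averages log levels and a line at 0 counts makes its estimates unstable. S1PR3, with 0 counts in ALL-SIL, was not called there (log2 difference -8.01, SE 16310). ITGA2, with 0 counts in KARPAS-45, was called there (-9.8, SE 1.58). ITGAV was called higher in LOUCY (4.15), though KARPAS-45 held more of it.

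Markers of other cell types move with the lines as well. LOUCY libraries held 65.0 to 97.6 CPM of the 12 myeloid markers, beside at most 34.1 CPM in any library of the other untreated lines, and 332.4 to 441.6 CPM of 7 B-cell markers, beside 1172 to 2094 in DND-41. The part of these programs in the receptor levels was not tested.

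ITGA4 had its highest level among the untreated lines in LOUCY, where it read 951, 852, 1009 and 912 CPM. HPB-ALL (419.6, 590.5, 548 and 417) came next (log2 difference 0.92, SE 0.19, adjusted p 0.000211), followed by TALL-1 (279.9 ± 68.1). ALL-SIL (202), KARPAS-45 (152) and DND-41 (134) came last, and neighbours among these did not differ beyond their spread (adjusted p 0.0604 and 0.423). ITGB1 read 461, 450.0, 489 and 668 CPM in LOUCY, above every library of the other lines, whose means of 179 to 278 formed an order in which no neighbours differed. HPB-ALL replicate 4, at 386 CPM of ITGB1, stands apart from 119, 181 and 172 in the same line. Without replicate 4 of every line, ITGB1 in HPB-ALL was below TALL-1 (log2 difference 0.66, SE 0.16, adjusted p 0.000731, TALL-1 minus HPB-ALL) and below ALL-SIL (log2 difference -0.37, SE 0.15, adjusted p 0.0426, HPB-ALL minus ALL-SIL), and ITGA4 was higher in ALL-SIL than in KARPAS-45 (log2 difference 0.49, SE 0.19, adjusted p 0.0231). Per kilobase, ITGA4 was above ITGB1 in LOUCY (118 and 86.02 RPKM) and HPB-ALL (62.5 and 35.7), and ITGB1 was above ITGA4 in KARPAS-45 (46.3 and 19.2).

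LFA-1 was led by other lines. ITGAL read 1572, 1516, 1759 and 1616 CPM in ALL-SIL (log2 difference 2.82, SE 0.23, adjusted p 8.1e-11 against TALL-1). TALL-1 (229 ± 37.2) and KARPAS-45 (228 ± 10.1) followed and did not differ beyond their spread (adjusted p 1), and DND-41 was lowest with 6.67, 12.9, 13.9 and 16.3. ITGB2 instead was highest in KARPAS-45, with 527, 536, 538 and 452 CPM, ahead of ALL-SIL at 289 ± 9.55 (log2 difference 0.83, SE 0.16, adjusted p 5.2e-05). DND-41 (204 ± 44.3) held more ITGB2 than HPB-ALL, TALL-1 and LOUCY, among which neighbours did not differ (132, 117 and 113 CPM). Per kilobase, ITGAL was 249.7 RPKM beside 42.6 of ITGB2 in ALL-SIL, and 1.92 beside 29.99 in DND-41.

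Other alpha chains had their peak in further lines. ITGA1, a collagen receptor chain, read 273, 258, 245 and 248 CPM in TALL-1 and 41.8, 61.6, 76.3 and 78.1 in DND-41, and had means of 0.0696 in LOUCY and 0.0036 in KARPAS-45. ITGA2, the other common collagen chain, read 19.5, 28.3, 25.8 and 24.99 CPM in DND-41 and 24.1, 20.6, 17.4 and 28.01 in ALL-SIL, which did not differ beyond their spread (adjusted p 0.68), and had 0 counts in KARPAS-45. ITGAV read 77.6, 75.7, 80.05 and 79.3 CPM in KARPAS-45 and had means of 0.0205 in TALL-1 and 0.0192 in ALL-SIL. ITGA6 read 221, 239, 241 and 209.7 CPM in LOUCY and 224, 213, 213 and 221 in KARPAS-45, which did not differ beyond their spread (adjusted p 0.849), and the other 4 lines had means of 12.3 to 20.04. So ITGA6 fell into a high pair of lines and a low set of 4. ITGAE, the chain CD103 of lymphocytes within epithelium, read 142, 119, 130.3 and 101 CPM in HPB-ALL, against at most 73.4 in any other line. Its beta partner ITGB7 was near 0 there, at 0.0195 ± 0.0279 CPM.

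**Figure D4:**
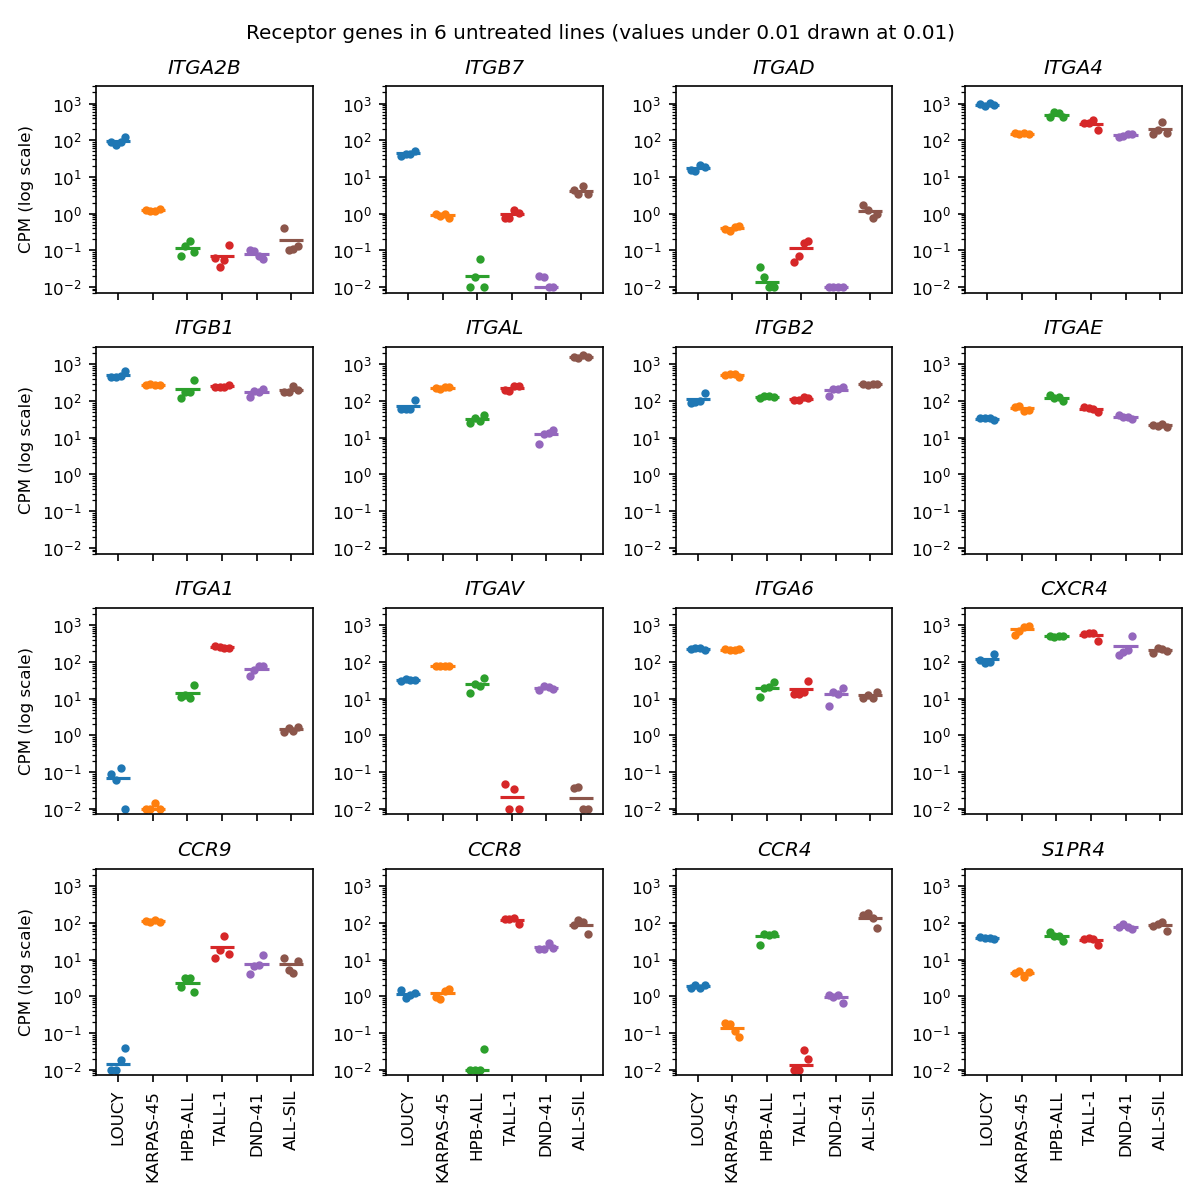
CPM (log axis) of 16 receptor genes in the 24 libraries of 6 untreated lines, with 1 point per library (4 per line), a line at each mean and values under 0.01 drawn at 0.01. ITGA2B, ITGB7 and ITGAD peak in LOUCY, ITGAL and CCR4 in ALL-SIL, CCR9 in KARPAS-45, ITGA1 in TALL-1 and ITGAE in HPB-ALL, while ITGB1 and CXCR4 are high in all 6.

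Of the chemokine receptors above 10 CPM in any line, CXCR4 had the smallest range between lines, 2.71 on the log2 scale. KARPAS-45 read 554, 699, 884 and 962 CPM, TALL-1 568, 637, 613 and 384 and HPB-ALL 507, 481, 512 and 496, and these neighbours did not differ beyond their spread (adjusted p 0.101 and 0.669). DND-41 read 155, 191, 212 and 507 CPM, with replicate 4 far above the others, ALL-SIL had 212 ± 29.6 and LOUCY was lowest at 119 ± 32.9. CCR9, the receptor for thymic and gut CCL25, read 112, 108, 117 and 104 CPM in KARPAS-45 and 11.1, 18.2, 43.9 and 14.03 in TALL-1, which came next (log2 difference 2.34, SE 0.38, adjusted p 6.3e-06), and had a mean of 0.0143 in LOUCY. CCR8, a receptor for CCL1 found on regulatory T cells, read 127, 129, 140.2 and 90.9 CPM in TALL-1 and 87.2, 117, 109 and 48.99 in ALL-SIL (adjusted p 0.108 for the difference). CCR4 read 160.0, 191, 139.5 and 71.6 CPM in ALL-SIL and 25.1, 49.6, 45.7 and 51.01 in HPB-ALL, and the next line, LOUCY, had 1.89. CCR7, the receptor of lymph-node entry, read 39.1, 36.8, 35.5 and 21.3 CPM in HPB-ALL, 7.68, 9.97, 27.1 and 8.51 in ALL-SIL and 16.5, 9.18, 14.97 and 3.02 in LOUCY. HPB-ALL was above ALL-SIL (log2 difference 1.32, SE 0.49, adjusted p 0.0233) with 1 ALL-SIL library inside its range, and ALL-SIL and LOUCY did not differ beyond their spread (adjusted p 0.626). CXCR3, a receptor of effector T cells, read 8.02, 16.1, 11.2 and 5.98 CPM in LOUCY and had 0 counts in DND-41.

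The receptor of egress, S1PR1, was low in the untreated lines. Its means were 2.19 ± 0.261 CPM in DND-41, 1.29 in TALL-1 and at most 0.43 in the others. Jurkat controls, labelled total RNA and normalised in another table, had 16.9. Per kilobase, S1PR4 was the highest of the 5 sphingosine receptors in each line, from 2.55 RPKM in KARPAS-45, where S1PR5 had 2.4, to 51.4 in ALL-SIL. Its libraries read 83.3, 93.7, 103 and 61.6 CPM in ALL-SIL and 79.3, 91.9, 79.2 and 66.9 in DND-41 (adjusted p 0.636 for the difference) and 4.34, 4.8, 3.34 and 4.51 in KARPAS-45. The 3 lines in between, HPB-ALL, LOUCY and TALL-1, had 44.9, 38.99 and 34.02 CPM and did not differ from each other as neighbours in the order. S1PR2 lay between 3.69 and 11.5 CPM in 5 lines and at 0.441 ± 0.089 in TALL-1. TALL-1 instead had the highest S1PR5, a receptor of natural killer cell egress, with 16.6, 15.3, 14.7 and 19.01 CPM, and KARPAS-45 6.83, 6.74, 6.58 and 6.86 (log2 difference 1.28, SE 0.21, adjusted p 1.8e-05). LOUCY and ALL-SIL had 0 counts of it. S1PR3 was at most 9.62 CPM in any untreated library.

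Of the receptors that stayed under 10 CPM in every line, ITGA7, ITGA9, ITGA10, ITGB3, ITGB5, ITGB6, CCR1, CCR2, CCR10, CXCR5, CXCR6 and S1PR1 were tested with the rest, as were ITGAX, CXCR1 and S1PR3. Line means ran from 0.627 to 2.2 CPM for ITGA7, 0.0378 to 0.341 for ITGA9, 0.543 to 2.44 for the collagen chain ITGA10 and 0.109 to 3.26 for ITGB5. Those of CCR1 ran from 0 to 1.75 CPM and those of CCR10, a receptor of skin-homing cells, from 0.0772 to 1.75. CXCR5 was highest in HPB-ALL (4.99 ± 0.924 CPM), CXCR6 and CCR2 in ALL-SIL (4.83 ± 2.32 and 2.13 ± 0.883) and ITGB3 in DND-41 (2.52 ± 0.145), each above all 20 libraries of the other lines.

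The untreated HPB-ALL libraries and the control libraries labelled HPB-ALL, which come from tables normalised separately and were not tested against each other, gave unlike levels for many receptors. ITGA5 was at 0.307 ± 0.0319 CPM in the former and 541 ± 17.5 in the latter. ITGB2 was at 132 ± 7.45 and 1326 ± 49.1 CPM, ITGAM at 0.49 ± 0.146 and 86.2 ± 2.64, and ITGA3 at 0 counts and 60.8 ± 2.73 CPM. In the other direction CCR4 was at 42.9 ± 12.1 and 0.162 ± 0.0158 CPM, CCR7 at 33.2 ± 8.06 and 0.0293 ± 0.00749, and ITGAE at 123 ± 17.6 and 12.7 ± 1.24. S1PR4 had close means in both, 44.9 ± 10.7 and 47.5 ± 3.79 CPM.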

How the data were processed

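RNA-seq of 40 libraries was used as 3 tables of raw read counts per gene, deposited by the authors without normalization. Per the submitters' processing notes the tools were Trimmomatic 0.39 and STAR 2.7.11b with genome build GRCh38. Which program counted the reads, with which annotation and strand option, is not given here by any source. Rows that name no gene, which held 13.0% to 15.1% of reads in the table of the libraries labelled HPB-ALL, stayed out of library sizes and tests. Each table was normalised on its own (edgeR 4.0.16, trimmed mean of M values), so levels set across tables are not tested. CPM is counts scaled by library size with that scaling, and RPKM divides it by the exon length of GENCODE 29. Columns without a sample numbered 0.

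Knockdowns and lines were tested on the deposited counts with edgeR's quasi-likelihood F test after filterByExpr, with Benjamini-Hochberg adjustment over all genes tested and a threshold of 0.05, in R 4.3.3. DESeq2 1.42.0, size factors, no filter, the replicate number as a block and leaving out each library were the alternatives, and leaving out each same-numbered Jurkat pair under the block, or replicate 4 of every untreated line, was added after seeing the data. The receptors and the gene lists were chosen with earlier results of these data known. Each receptor is named; of a list, up to 4 called genes with the smallest p are named, and further ones are marked as such. 1 listed gene is not reported here, and no counts are given for its list.

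Same-numbered Jurkat libraries deviated together (r 0.733 to 0.877 across genes, 8 of 8 libraries closest to their own number), so these numbers pair the samples. They did not in the libraries labelled HPB-ALL (-0.206 to 0.036). No pair of replicates agreed within sampling noise (chi-square per degree of freedom 12.7 to 348). In data simulated for the Jurkat comparison over 17358 genes, the test recovered 36% of changes of 0.5 and 99% of changes of 1 on the log2 scale. The simulation gave every gene the same dispersion, left out genes with low counts and held no deviation shared by same-numbered libraries. In the real Jurkat fit, the 20 tested receptors under 10 CPM in controls had a median SE of 0.47 and SE up to 0.86. The recovered shares do not carry over to these receptors. Whether they hold for the 14 receptors with at least 10 CPM in controls (SE 0.11 to 0.26) was not tested. The limit set for a gene at 0 counts was 3 counts, for counting error only.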

Additional observations from a re-analysis of the deposited data

Results flagged for a closer look

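In 233 sets of 4 libraries (a receptor in a group with a mean of at least 1 CPM), 15 had 1 library far from the other 3 by Dixon's criterion, and chance gives about 1 in 20. Of these, 11 were in untreated lines, 8 of them a replicate 4, of which 3 were TALL-1 and 2 DND-41. TALL-1 replicate 4 was high for ITGA6 (30.9 CPM beside 13.7 to 15.3) and ITGB1 (279.6 beside 239 to 244) and low for S1PR4 (24.7 beside 35.8 to 38.1). DND-41 replicate 4 was high for CXCR4 (507 beside 155 to 212) and ITGA7 (1.75 beside 0.854 to 1), and DND-41 replicate 3 for CCR8 (28.2 beside 19.1 to 20.6). LOUCY replicate 4 was high for ITGAL (110.2 beside 60.8 to 61.8) and HPB-ALL replicate 4 low for CXCR3 (1.68 beside 5.1 to 5.71). KARPAS-45 replicate 4 was low for ITGB2 (452 beside 527 to 538) and its replicate 3 high for ITGA3 (3.42 beside 2.63 to 2.68), and ALL-SIL replicate 3 was high for CCR7 (27.1 beside 7.68 to 9.97). In Jurkat controls, replicate 2 was high for ITGAV (75.6 beside 63.4 to 64.4) and low for CCR4 (6.11 beside 11.1 to 11.7), and replicate 3 low for S1PR2 (5.98 beside 8.07 to 8.43). With QKI siRNA, Jurkat replicate 1 was high for ITGAL (21.5 beside 13.6 to 14.5).

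The knockdown effect differed between the experiments, by the test of the difference with the replicate number as a block, for ITGAV (log2 difference -0.43, labelled HPB-ALL minus Jurkat) and ITGA3 (-0.40). Without the block neither difference was called.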

How the results depend on the processing

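The number of receptors called in Jurkat was 0 under every alternative, including each left-out library or same-numbered pair. In the libraries labelled HPB-ALL the 16 calls became 14 to 16 when 1 library was left out, 15 with DESeq2 (beside 23.6% of all genes), 14 without a filter, 14 with the replicate block (beside 17.0%) and 16 with other size factors. The calls lost were those of ITGAL, ITGAM and, with DESeq2, CCR4; the other 13 were kept under each of these settings, and ITGA1 was gained without control replicate 2. The difference between the knockdowns called 0 receptors, 0 without any 1 library (0 to 0), and 2 with the replicate block. Same-numbered libraries labelled HPB-ALL share only a number (1 of 8 libraries was closest to its own number). In the untreated lines correlations of same-numbered libraries ran from -0.216 to 0.548. As a hint from the data, 13 of the 22 libraries with a number of their own were closest to that number. Replicate 4 of the 5 lines other than KARPAS-45 correlated at 0.203 to 0.548 with each other and at 0.036 to 0.113 with replicate 4 of KARPAS-45. The block is a check in both sets and not a paired design. In the untreated lines all 40 tested receptors stayed called by the F test without any 1 library. Against the mean of the other 5 lines, leaving out 1 library gave 29 to 34 calls for ALL-SIL, 23 to 28 for DND-41, 30 to 32 for HPB-ALL, 29 to 31 for KARPAS-45, 29 to 32 for LOUCY and 25 to 26 for TALL-1. Leaving out replicate 4 of every line at once, added after the data were seen, kept 40 calls by the F test and moved each line's count by at most 3. Of the differences between neighbouring lines, 98 were called with and without it, 4 were lost, 10 were gained and 1, ITGB1 in HPB-ALL and ALL-SIL, changed sign and was then called (adjusted p 0.0426, 0.786 with all libraries); these differences were run under no other alternative. For the knockdown calls no alternative run reversed a direction. None did so for each receptor's highest line against the mean of the other 5 either. That line was picked as the highest from these same libraries, so a reversal could hardly occur and its absence is no check. Levels under 1 CPM rest on few counts and carry the widest errors.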

Other observations

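Of 24 integrin ligands 7 to 12 had a mean of at least 1 CPM in a group, and of 24 chemokines 0 to 5. CXCL12, the ligand of CXCR4, had 1 count in total in LOUCY and 0 counts in every other untreated line and in both arms labelled HPB-ALL. Jurkat controls had 65 counts of it in total (0.147 ± 0.101 CPM). VCAM1, the counter-receptor of alpha-4 beta-1, had means of at most 0.0106 CPM in any group. CCL25, the ligand of CCR9, was at 2.66 ± 0.222 CPM (SD, n = 4) in KARPAS-45, 0.869 ± 0.0941 in HPB-ALL and 0.159 ± 0.0535 in TALL-1, the line with the second highest CCR9. CCL1, the ligand of CCR8, was at 2.58 ± 1.61 CPM in TALL-1, with libraries from 0.272 to 3.92, and had 1 count in total in ALL-SIL, the line with the second highest CCR8. ICAM2, a ligand of LFA-1, was at 229.8 ± 20.2 CPM in TALL-1 and between 36.0 and 84.4 in the other untreated lines.

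Homing genes outside the 46 also had unlike levels between lines. CD44 was at 303 ± 82.5 CPM in DND-41 and 254 ± 52.2 in LOUCY, and at 0.0699 ± 0.0171 in KARPAS-45 and 0.0967 ± 0.0577 in Jurkat controls. CD69, which pulls S1PR1 off the cell surface, had 0 counts in ALL-SIL and 61.1 ± 12.5 CPM in LOUCY.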
